A study of Oreochromis niloticus with 6 samples.

Results

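Desaturases of the fads family and elongases of the elovl family were followed in the liver of Nile tilapia (Oreochromis niloticus) on 2 diets. These families include the enzymes that build long-chain polyunsaturated fatty acids, and also members that act on other chains. Members were all gene IDs whose name is fads or elovl followed by a number, allowing the suffix a or b that marks duplicated fish genes: 11 of 26490 gene IDs, on 14 of 33245 transcript rows. They are fads2, FADS6, elovl1a, elovl1b, elovl4a, elovl4b, elovl5, elovl6, elovl7a, elovl8a and elovl8b. The name elovl6l has a further letter and was not taken; its row was listed at 0 in all 6 libraries.

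The fish were wild-type juvenile males of the GIFT strain, a line of farmed tilapia selected for growth. One group ate a high-fat diet (HFD, 18.5% lipid) and the other a normal-fat diet (NFD, 8% lipid), each for 56 days, and each diet gave 3 liver libraries. RNA was depleted of ribosomal RNA, and per the labels' protocols RNA of 3 samples per group was mixed, so the spread between libraries may be partly or wholly technical. The fatty acid make-up of the diets is not given in the sources used here. All levels are FPKM, fragments scaled to the length of the transcript and the size of the library, as the authors deposited them; the depth in reads is unknown.

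Plant oils supply linoleic and alpha-linolenic acid, and vertebrates lengthen and desaturate these into arachidonic, eicosapentaenoic and docosahexaenoic acid. Front-end desaturases such as fads2 place new double bonds near the carboxyl end of the chain, and elongases add pairs of carbon atoms in the endoplasmic reticulum. Elovl5 is the elongase of shorter polyunsaturated chains, elovl4 that of very long chains, and elovl6 extends saturated and monounsaturated products of fat synthesis. Liver is a main site of this pathway in fish, where fads2 can carry several desaturase activities.

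The desaturase fads2 (MSTRG.4351) and the elongases elovl5 (MSTRG.5055) and elovl6 averaged lower FPKM in HFD livers than in NFD livers. In fads2 and elovl6 the libraries of the same diet spread widely, and the diets overlapped. Elovl1b and elovl8b differed by less than the spread between libraries. None of these differences passed over all genes: 0% of 9204 tested genes had an adjusted p under 0.05 (limma, Benjamini-Hochberg, two-sided), and so 0 of 6 tested members. In the same limma fit 554 of the 9204 genes, or 6.02%, had an unadjusted p under 0.05, and the smallest adjusted p of any gene was 0.235. The median log2 fold change over the tested genes was 0.0031, and 49.6% of these genes had a log2 fold change below 0.

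Fads2 was at 10.4, 45.6 and 4.16 FPKM in HFD replicates 1, 2 and 3, against 155, 98.1 and 37.0 FPKM in NFD replicates 1, 2 and 3. The diets overlapped through a single pair, since HFD replicate 2 lay above NFD replicate 3. The means were 20.05 ± 22.3 FPKM in HFD and 96.7 ± 59.0 FPKM in NFD (SD, n = 3 each). By mean level fads2 ranked 488th of the 9204 tested genes in HFD and 176th in NFD. The log2 fold change on the log2(FPKM + 0.5) scale was -2.65 ± 0.93 SE (95% interval from -4.89 to -0.41), with an adjusted p of 0.784 in limma. It was the 8th lowest fold change among all tested genes, but its libraries also spread widely, 11.0-fold from lowest to highest within HFD and 4.19-fold within NFD. The unadjusted p in limma was 0.027, which put fads2 317th of 9204 genes by p.

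Elovl5 was at 13.6, 12.1 and 14.4 FPKM in HFD replicates 1 to 3, against 26.6, 26.5 and 16.8 FPKM in NFD replicates 1 to 3. All HFD libraries were below all NFD libraries, as they were for 6.15% of tested genes. The HFD libraries lay close together, within 1.19-fold, and NFD replicate 3 was the lowest of its diet, as it was for fads2. Elovl5 averaged 13.4 ± 1.15 FPKM in HFD and 23.3 ± 5.62 FPKM in NFD (SD, n = 3 each). The log2 fold change was -0.75 ± 0.24 SE (95% interval from -1.34 to -0.17), with an adjusted p of 0.749 in limma. The unadjusted p in limma was 0.0197; 308 genes, or 3.35%, were lower in HFD at an unadjusted p under 0.05.

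Elovl6 (MSTRG.7929) was also abundant, and single libraries set its range. It was at 19.2, 35.9 and 10.3 FPKM in HFD replicates 1 to 3, against 13.2, 21.1 and 85.4 FPKM in NFD replicates 1 to 3. The diets overlapped, and the highest value belonged to NFD replicate 3, the library lowest among NFD livers in fads2 and elovl5. The means were 21.8 ± 13.0 FPKM in HFD and 39.9 ± 39.6 FPKM in NFD (SD, n = 3 each), and the NFD mean rests on that library. The log2 fold change was -0.57 ± 0.77 SE (adjusted p = 0.952 in limma), and it ranged from -1.13 without NFD replicate 1 to 0.20 without NFD replicate 3.

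**Figure D1:**
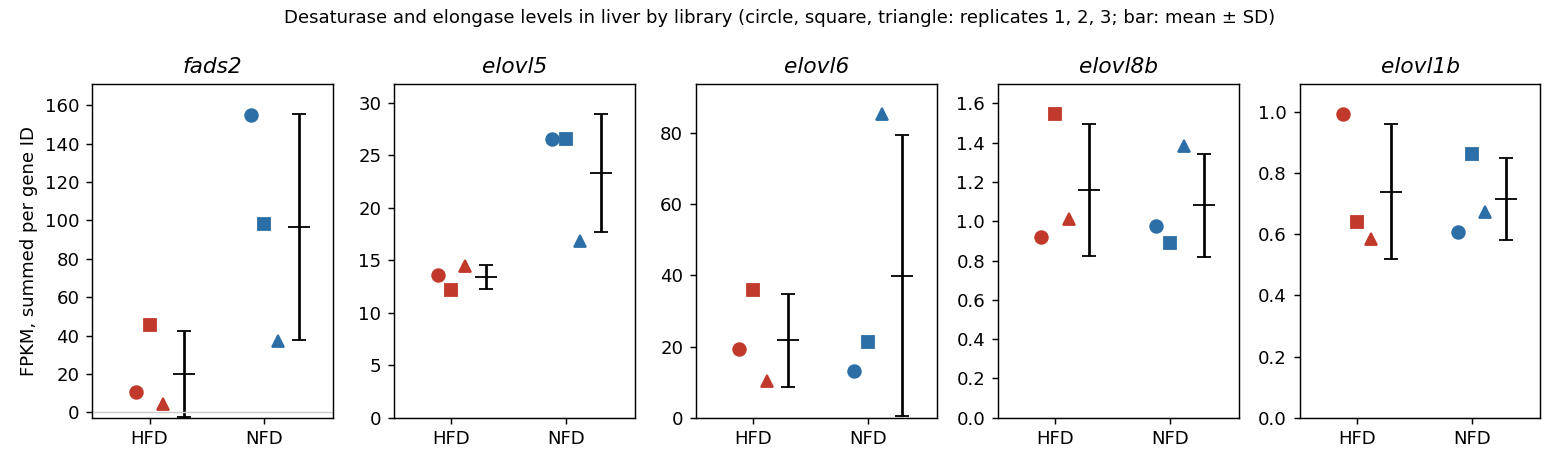
FPKM of the 5 members tested on rows of their own, one panel per gene with its own linear axis; HFD libraries stand left in red and NFD libraries right in blue, symbols mark the replicates, and black bars give the mean ± SD of 3 libraries. Elovl5 is the gene without overlap between diets, at 12.1 to 14.4 FPKM in HFD and 16.8 to 26.6 FPKM in NFD, while the NFD mean of elovl6 rests on 1 library at 85.4 FPKM.

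The remaining elongases were low. Elovl8b (MSTRG.3290), of an elongase family described in fish, was at 0.921, 1.55 and 1.01 FPKM in HFD replicates 1 to 3, against 0.975, 0.890 and 1.38 FPKM in NFD replicates 1 to 3. Elovl1b (MSTRG.3303), an elongase of long saturated chains, was at 0.993, 0.639 and 0.586 FPKM in HFD, against 0.608, 0.864 and 0.673 FPKM in NFD. In both genes the diets overlapped. The limma log2 fold changes were 0.06 ± 0.22 SE for elovl8b and 0.02 ± 0.20 SE for elovl1b, with 95% intervals from -0.47 to 0.60 and from -0.47 to 0.51. These intervals exclude a difference as large as the estimate for elovl5, but its own interval overlaps them, and the difference between genes was not tested.

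For 5 members too few libraries reached the filter of 0.5 FPKM in at least 3 of 6. Elovl1a ranged from 0 to 0.433 FPKM and elovl7a from 0 to 0.235 FPKM over the 6 libraries. Elovl4a was listed at 0.0340 FPKM in NFD replicate 2 and at 0 elsewhere, and elovl4b was at 0.00997 and 0.0102 FPKM in HFD replicates 1 and 3 and at 0 elsewhere. FADS6, a desaturase-like gene, was between 0.00952 and 0.0551 FPKM on its own row; its gene ID MSTRG.15451 also carries trim16, which held most of the summed level. In the sixth gene ID that was tested, MSTRG.28139, the elovl8a row was listed at 0 in every library. The summed level there, 0.599 ± 0.110 FPKM in HFD and 2.29 ± 1.63 FPKM in NFD, came entirely from a row named ENSONIG00000009050 and is no measure of elovl8a.

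Among the abundant enzymes the balance varied from library to library. For each FPKM of fads2 there were 1.304, 0.266 and 3.47 FPKM of elovl5 in HFD replicates 1 to 3, against 0.171, 0.270 and 0.455 FPKM in NFD replicates 1 to 3. HFD replicate 2 thus lay within the NFD range, and HFD replicates 1 and 3 held more elovl5 than fads2. The mean log2 ratio of elovl5 to fads2 was 0.06 ± 1.79 in HFD and -1.83 ± 0.71 in NFD (SD), a difference of 1.89 (exact permutation test over 20 assignments, two-sided p = 0.2, smallest possible p 0.1). The difference was 2.86 without HFD replicate 2 and 1.08 without HFD replicate 3. The elovl rows together summed to 34.9, 50.6 and 26.4 FPKM in HFD replicates 1 to 3, against 41.4, 49.7 and 104.7 FPKM in NFD replicates 1 to 3, with overlapping diets (exact permutation test on log2 values, two-sided p = 0.3). Elovl6 made up 55.0%, 71.1% and 38.8% of that sum in HFD and 31.9%, 42.5% and 81.6% in NFD, and most of the rest was elovl5.

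**Figure D2:**
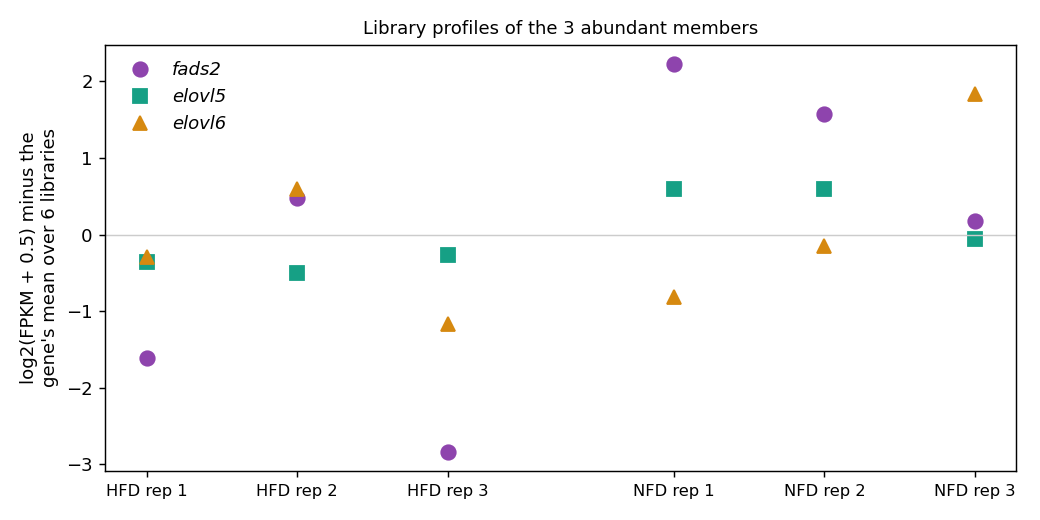
Log2(FPKM + 0.5) of fads2, elovl5 and elovl6 minus each gene's mean over the 6 libraries, with HFD libraries left and NFD libraries right. Fads2 spans the widest range, from 4.16 to 155 FPKM, and elovl6 peaks in NFD replicate 3, where fads2 and elovl5 have their lowest NFD values.

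The gene ID of fads2 has 4 rows, whose deposited name, "fads2 (1 of many)", marks a gene with several copies. ENSONIT00000019563 held 92.2%, 96.4% and 71.5% of the summed level in HFD replicates 1 to 3, against 94.8%, 97.2% and 94.6% in NFD replicates 1 to 3. The low share belongs to HFD replicate 3, where this transcript was at 2.97 FPKM. The mean share was 86.7% ± 13.3 in HFD and 95.5% ± 1.47 in NFD (SD; exact permutation test, two-sided p = 0.3), and the difference of -8.84 percentage points was -13.7 without HFD replicate 2 and -1.25 without HFD replicate 3. The second transcript, ENSONIT00000019561, was at 0.691, 1.33 and 1.17 FPKM in HFD, against 7.74, 2.10 and 1.79 FPKM in NFD, so that HFD lay wholly below NFD, as in 6.12% of 9361 tested transcripts. Its log2 fold change was -1.25 ± 0.52 SE (adjusted p = 0.814 in limma), against -2.78 ± 0.998 SE for ENSONIT00000019563 (adjusted p = 0.798), and 0% of transcripts had an adjusted p under 0.05, while 6.04% had an unadjusted p under 0.05 in limma. Without NFD replicate 1, the library at 7.74 FPKM, the log2 fold change of ENSONIT00000019561 was -0.67. ENSONIT00000019564 was between 0.0122 and 0.619 FPKM, and ENSONIT00000019562 was listed at 0 in all libraries but HFD replicate 1.

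**Figure D3:**
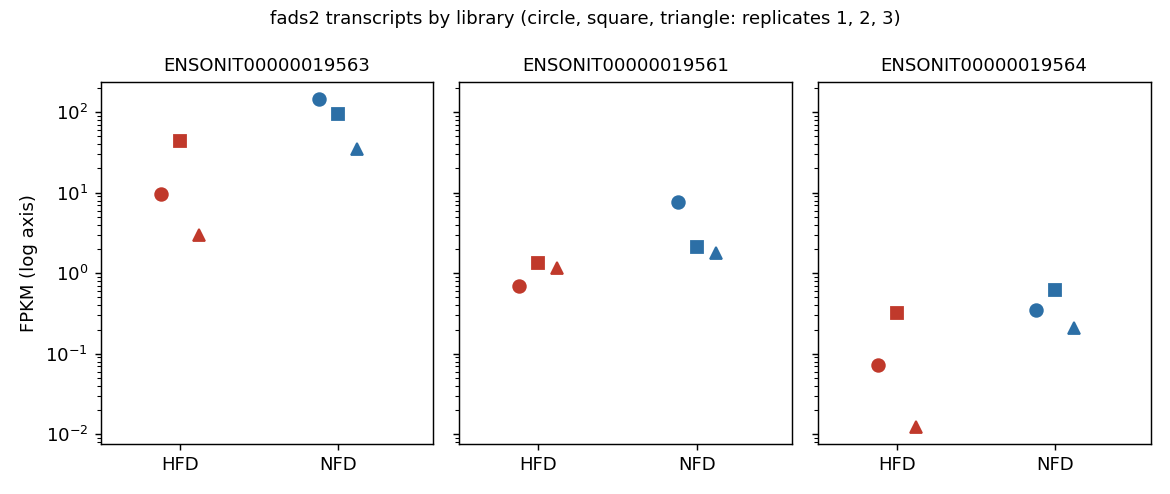
FPKM of the 3 fads2 transcripts with a value in every library, on a shared log axis, HFD left and NFD right, symbols marking the replicates. ENSONIT00000019563 is the highest of the 3 in all 6 libraries, and ENSONIT00000019561 is the one whose diets do not overlap, at 0.691 to 1.33 FPKM in HFD and 1.79 to 7.74 FPKM in NFD.

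RefSeq lists several protein-coding genes over the fads2 locus. In its gene table of the assembly O_niloticus_UMD_NMBU, where fads2 is listed under the symbol fadsd6 with the synonym Fads2, its span overlaps the protein-coding genes LOC100700077 and LOC100700348, and eps8l2 is a neighbour. In the deposited numbering EPS8L2 also neighbours fads2. How the authors' counting divided reads among the genes and rows at this locus is not given, so the split among the 4 rows is uncertain. Of the 7 transcript numbers from the first to the last fads2 row, 3 are in neither table; any reads assigned to them are not in these values. Single rows stand for elovl5, elovl6, elovl8b and elovl1b, with 2, 2, 3 and 0 absent numbers between them and the neighbouring mRNA rows.

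No lncRNA row shares a gene ID with a member, and 15 lncRNA rows are numbered between members and their neighbouring mRNA rows. Of the 13 tested, 1 was lower and 2 were higher in HFD without overlap, as were 3.79% and 6.02% of 18368 tested lncRNA transcripts. Numbering stands in for position here, and the pair described next was chosen after the values were seen. MSTRG.4352.1, numbered just before the fads2 rows, was at 6.98, 10.9 and 9.07 FPKM in HFD, against 12.5, 12.1 and 15.0 FPKM in NFD. Its HFD values lay wholly below its NFD values. Its log2 fold change was -0.55 ± 0.32 SE (adjusted p = 0.982 in limma), and 0% of lncRNA transcripts had an adjusted p under 0.05, while 4.24% had an unadjusted p under 0.05 in limma. MSTRG.7930.1, numbered just after elovl6, was at 0.373, 1.51 and 0.0693 FPKM in HFD, against 0.116, 0.371 and 3.39 FPKM in NFD. Its libraries fell in nearly the order of elovl6, highest in NFD replicate 3, then HFD replicate 2, and lowest in HFD replicate 3, and its diets overlapped (log2 fold change -0.35 ± 0.77 SE, adjusted p = 0.990). RefSeq also lists a lncRNA, LOC112847794, that overlaps elovl6. The strand setting is not given, so reads of overlapping transcripts on opposite strands cannot be told apart.

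**Figure D4:**
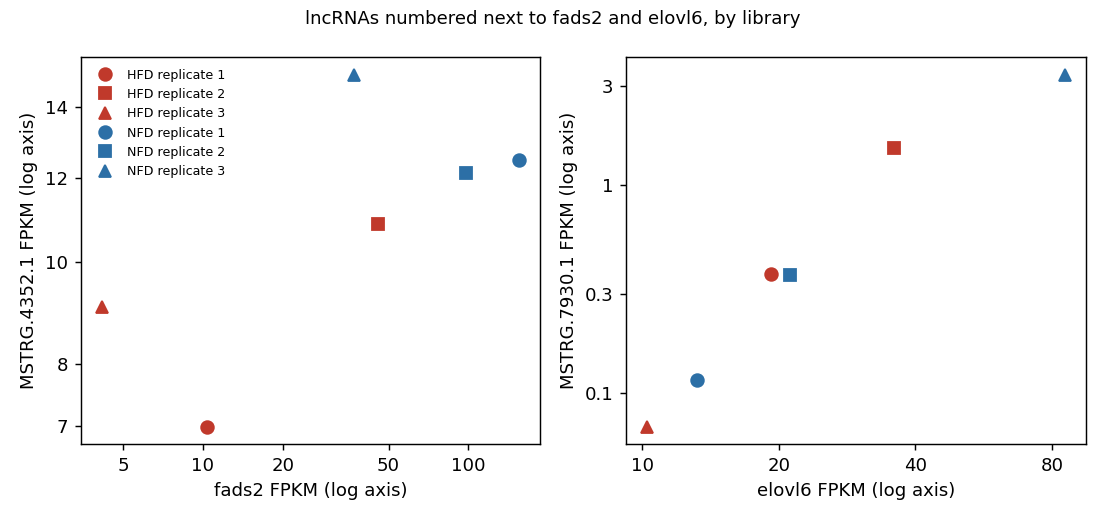
FPKM of each lncRNA against the member numbered next to it, on log axes, one point per library; red points are HFD and blue points NFD, and symbols mark the replicates. MSTRG.4352.1 separates the diets, at 6.98 to 10.9 FPKM in HFD and 12.1 to 15.0 FPKM in NFD, while MSTRG.7930.1 is highest in NFD replicate 3, where elovl6 is highest, and its diets overlap.

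The elongases work in a cycle with a ketoacyl reductase, a dehydratase and an enoyl reductase. Of 5 tested partners 1 was higher and 4 were lower in HFD (median log2 fold change -0.25), and 0 passed over all genes. The reductase hsd17b12b (MSTRG.18654) was at 6.88, 9.66 and 7.04 FPKM in HFD, against 10.4, 12.8 and 12.2 FPKM in NFD. It was the partner whose diets did not overlap, with HFD below NFD as in 6.15% of all tested genes. Its log2 fold change was -0.57 ± 0.21 SE (adjusted p = 0.803 in limma). The dehydratase hacd3 (MSTRG.4317) was at 22.7, 16.2 and 32.9 FPKM in HFD, against 47.8, 55.6 and 30.1 FPKM in NFD, overlapping through HFD replicate 3 and NFD replicate 3 (log2 fold change -0.89 ± 0.35 SE, adjusted p = 0.826). NFD replicate 3 was again the lowest NFD library. Hacd2 averaged 7.94 ± 1.53 FPKM in HFD and 9.49 ± 1.53 FPKM in NFD, and a second HACD3 ID (MSTRG.24428) 3.25 ± 0.543 FPKM in HFD and 3.53 ± 0.517 FPKM in NFD (SD).

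Desaturases draw electrons from cytochrome b5 and its reductases. Of 4 tested cytochrome b5 and b5 reductase genes, not all known to serve desaturases, 1 was higher and 3 were lower in HFD (median log2 fold change -0.10). The abundant reductase cyb5r2 averaged 63.4 ± 16.6 FPKM in HFD and 75.6 ± 5.93 FPKM in NFD, and cyb5a 19.3 ± 3.37 FPKM in HFD and 19.6 ± 4.57 FPKM in NFD (SD, n = 3 each). Cyb5b was at 1.67 ± 0.279 FPKM in HFD and 1.21 ± 0.109 FPKM in NFD, higher in HFD in all libraries, as in 5.48% of tested genes (adjusted p = 0.890 in limma). Other acyl and sphingolipid desaturases, 4 in number, had a median of 0.06 on that scale. Among them scdb, a stearoyl-CoA desaturase that makes monounsaturated fat, was at 0.373, 2.33 and 3.86 FPKM in HFD, against 0.605, 0.125 and 0.873 FPKM in NFD, with overlapping diets (log2 fold change 1.17 ± 0.63 SE, adjusted p = 0.898). It was 1.84 without HFD replicate 1 and 0.68 without HFD replicate 3.

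Peroxisomes shorten very long chains in 1 route to docosahexaenoic acid. The listed peroxisomal genes, not all known to serve that route, pointed both ways. Of 9 tested genes, 2 were higher and 7 lower in HFD (median log2 fold change -0.22). Acaa1, the thiolase that closes the peroxisomal cycle, was at 5.39, 5.86 and 6.34 FPKM in HFD, against 5.18, 4.82 and 3.56 FPKM in NFD. Its HFD values lay wholly above its NFD values, as in 5.48% of tested genes. Its log2 fold change was 0.35 ± 0.20 SE (adjusted p = 0.898 in limma), and 0.21 without NFD replicate 3. Ehhadh (MSTRG.13631), a bifunctional enzyme of the peroxisome, was at 0.408, 1.19 and 1.81 FPKM in HFD, against 4.34, 4.40 and 7.81 FPKM in NFD. Its log2 fold change of -1.93 ± 0.40 SE was opposite in sign (adjusted p = 0.534 in limma). Its HFD values lay wholly below its NFD values, as in 6.15% of tested genes. Hsd17b4 of the same list averaged 2.96 ± 1.27 FPKM in HFD and 3.54 ± 0.356 FPKM in NFD (SD), with overlapping diets. The transporter ABCD2, which brings long acyl-CoAs into the peroxisome, averaged 1.18 ± 0.710 FPKM in HFD and 0.457 ± 0.275 FPKM in NFD, with overlapping diets.

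Of genes of fatty acid activation, binding and release, 9 of 10 tested had a log2 fold change below 0, as had 49.6% of all genes. Their median was -0.21 and the diets overlapped in every gene. Slc27a6 (-0.015) and acsl3b (-0.0016) among the 9 lay near 0. Of the 10, 0 had an unadjusted p under 0.05 in limma, beside 6.02% of all tested genes. Acsl4a, an acyl-CoA synthetase that prefers arachidonic acid in mammals, averaged 2.63 ± 0.566 FPKM in HFD and 3.94 ± 1.15 FPKM in NFD (SD, adjusted p = 0.898 in limma). Of 10 tested genes of phospholipid remodelling and transport, 7 were higher and 3 lower, with a median of 0.09. Mfsd2ab (MSTRG.33714), a fish copy of the lysolipid carrier that moves docosahexaenoic acid in mammals, was at 2.30, 4.58 and 1.51 FPKM in HFD, against 0.219, 0.971 and 1.51 FPKM in NFD. Its diets overlapped narrowly, HFD replicate 3 lying just below NFD replicate 3 (log2 fold change 1.25 ± 0.49 SE, adjusted p = 0.826), and the log2 fold change was 0.83 without NFD replicate 1. Mboat7, which places arachidonic acid on phosphatidylinositol in mammals, was at 1.88 ± 0.0618 FPKM in HFD and 2.52 ± 0.558 FPKM in NFD. Of 6 tested genes of eicosanoid synthesis 3 were higher and 3 lower, with a median of 0.0016. Ptgs1 (MSTRG.19765), a cyclooxygenase, averaged 2.88 ± 2.68 FPKM in HFD, of which HFD replicate 2 held 5.97 FPKM, and 1.27 ± 0.292 FPKM in NFD.

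By log2 fold change 6 of 7 tested transcriptional regulators were higher and 1 lower in HFD (median 0.11), and the diets overlapped in each. Over all tested genes 49.6% had a log2 fold change below 0. Of the higher regulators, ppard, scap and srebf2 were followed when single libraries were left out, and scap and srebf2 turned in sign. The regulators sp1, mlx and hnf4a, also higher by log2 fold change, were not followed in this way. Hnf4a, whose gene ID also carries r3hdml, had a log2 fold change of 0.088 ± 0.62 SE. Its mean FPKM was lower in HFD, at 8.53 ± 2.14 against 10.4 ± 10.1 in NFD (SD, n = 3 each). Srebf1, the sterol-regulated activator of fatty acid genes, was at most 0.03 FPKM in any library and was not tested. Srebf2, its sterol-gene relative, was at 7.32, 16.5 and 6.61 FPKM in HFD, against 4.54, 6.69 and 12.6 FPKM in NFD. Its highest HFD value was in replicate 2 and its highest NFD value in replicate 3, as for elovl6 and for ppard. This likeness was noticed with the values known and was not tested. Nr1h3, the liver X receptor, averaged 15.5 ± 1.05 FPKM in HFD and 16.9 ± 3.91 FPKM in NFD. Ppard, a fatty acid receptor whose gene ID also carries mkrn4, averaged 7.31 ± 2.23 FPKM in HFD and 5.72 ± 1.83 FPKM in NFD. In fatty acid synthesis, ACACA, acetyl-CoA carboxylase, which supplies the malonyl-CoA used by every elongase, was at 0.796, 1.37 and 0.696 FPKM in HFD, against 1.65, 2.30 and 3.03 FPKM in NFD, without overlap (log2 fold change -0.96 ± 0.27 SE, adjusted p = 0.708 in limma). Over all the pathway lists 0 of 58 tested genes passed over all genes; 3 were lower and 2 higher in HFD without overlap, beside 6.15% and 5.48% of all tested genes.

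**Figure D5:**
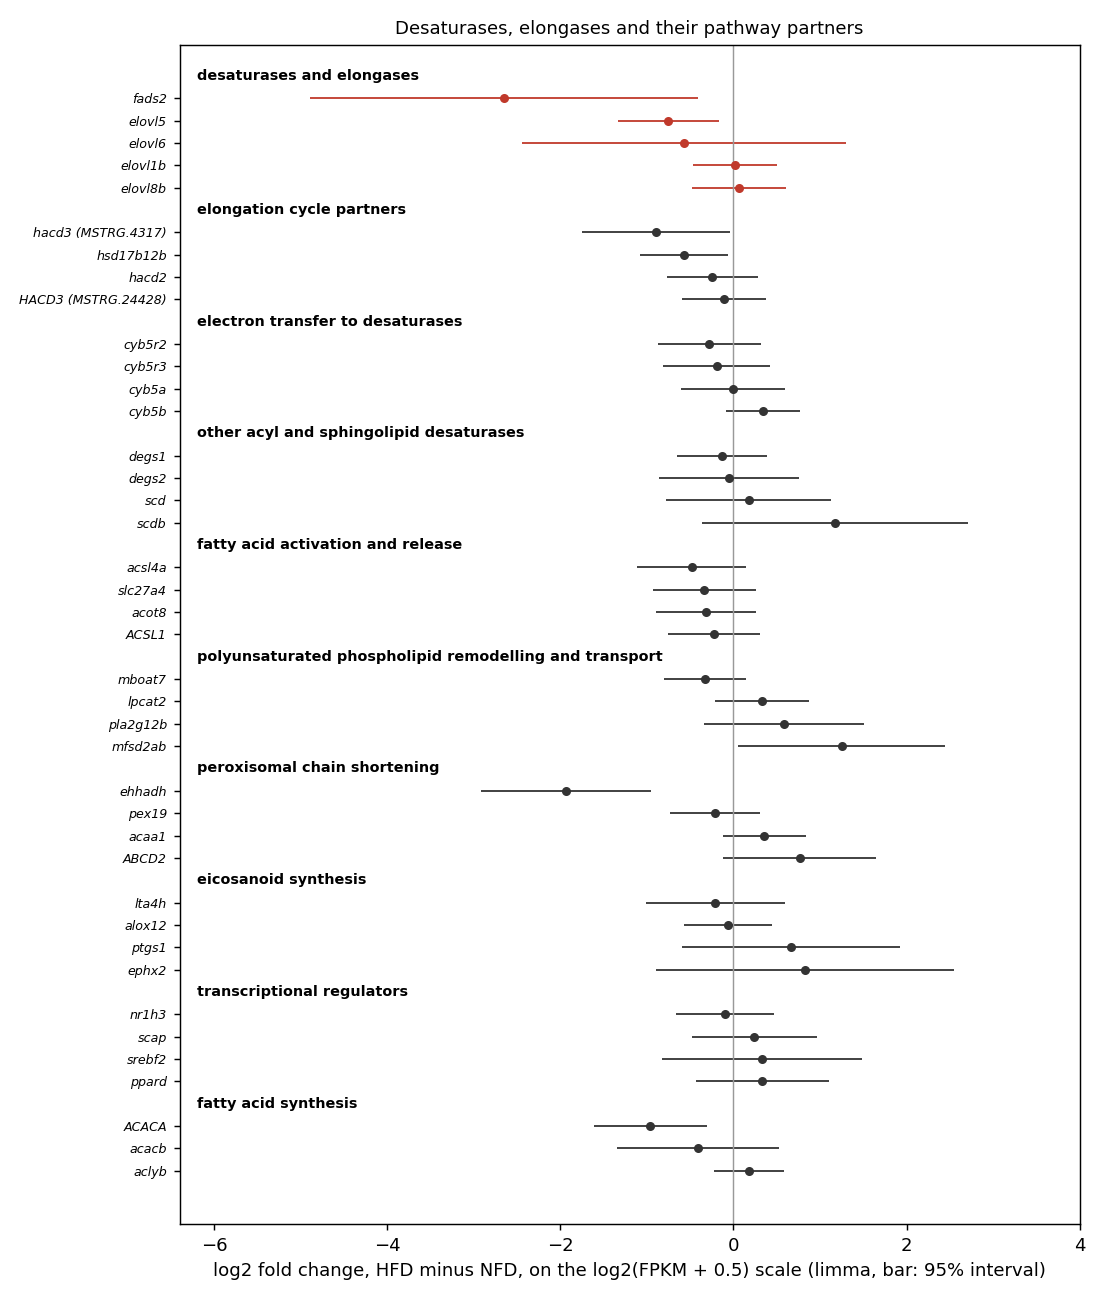
Log2 fold change, HFD minus NFD, with its 95% interval from limma, for the 5 members tested on rows of their own (red) and for up to 4 genes of each pathway list with the smallest unadjusted p (black). Fads2 at -2.65 and ehhadh at -1.93 lie farthest left, and none of the genes drawn passed adjustment over all genes.

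By likeness over the 6 libraries (Pearson r of log2(FPKM + 0.5) with 6441 other genes averaging at least 1 FPKM, as a description), the genes closest to elovl5 were smurf1, tktb, vat1, plbd1 and dnajc3a, with r from 0.972 to 0.997. Tktb, a transketolase of the pentose phosphate pathway, was at 59.1, 49.1 and 55.5 FPKM in HFD, against 102.5, 99.5 and 74.2 FPKM in NFD. Those closest to fads2 were siae, chst14, pla2g3, ndfip1 and ENSONIG00000002370, with r from 0.957 to 0.987. Pla2g3, a secreted phospholipase A2, was at 4.89, 5.76 and 2.94 FPKM in HFD, against 13.5, 10.1 and 7.08 FPKM in NFD. The diets are part of these profiles, and with 6 libraries many genes reach a high r.

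Transcripts of the exocrine pancreas, which lies within the liver of many fish, moved between libraries. The 8 pancreas markers summed to between 4585 and 17712 FPKM in HFD and between 3916 and 16461 FPKM in NFD, highest in HFD replicate 3 and NFD replicate 1, and 0 of them were listed at 0 throughout. These are also the libraries with the lowest and the highest fads2. Leaving out both was an alternative added after seeing the data. Without both, the log2 fold change of fads2 was -1.44 in place of -2.65 (unadjusted p = 0.191 in limma). Dropping the lowest HFD value and the highest NFD value of fads2 must shrink its difference, whatever the pancreas content. The fit is therefore no test of pancreas RNA in the fads2 difference. The log2 fold change of elovl5 was -0.70 in place of -0.75. Hepatocyte markers, 14 in number, summed to between 3533 and 4768 FPKM in HFD and between 5163 and 10322 FPKM in NFD. Of 12 tested, 4 were higher and 8 lower in HFD. The fibrinogen chain fgb was at 0.958 to 1.18 FPKM in HFD and at 3857, 0.835 and 3101 FPKM in NFD replicates 1 to 3. Without fgb the sums were 4707, 3532 and 4767 FPKM in HFD replicates 1 to 3, against 6464, 5162 and 5713 FPKM in NFD replicates 1 to 3. These sums did not overlap, but the gap rested on 1 gene ID, which carries apoa2 and apoeb. It was at 1667 to 2137 FPKM in HFD and 2171 to 3622 FPKM in NFD, and without it the sums overlapped. It was the marker without overlap, HFD being lower, as in 6.15% of tested genes. Serpinc1 averaged higher in HFD, at 259 ± 79.9 FPKM in HFD and 186 ± 18.4 FPKM in NFD (SD, n = 3 each). Adipocyte markers summed to between 16.9 and 26.3 FPKM in HFD and between 9.95 and 18.4 FPKM in NFD, of which fabp11a held most and lepa and fabp11b were listed at 0. The part of these cells in the members' values was not tested, and in whole liver fewer cells of a type and less RNA per cell cannot be told apart.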

How the data were processed

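Liver RNA of 3 HFD and 3 NFD libraries was analysed from tables of FPKM per transcript; the authors deposited the values as FPKM, per the file headers. Per the submitters' processing notes, the tools were StringTie 1.3.0, HISAT2 2.0.4, cutadapt 1.10, edgeR 3.22.3 and FastQC 0.10.1, whose roles are unstated there. Build and strand setting: not given in the sources used here. Libraries summed to between 141024 and 170847 FPKM over mRNA rows.

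The tables hold 0.0001 where a 0 would stand, and this value was set to 0. Rows were summed per gene ID, and genes with at least 0.5 FPKM in 3 of 6 libraries were tested (lncRNAs, 0.1 FPKM). The limma package (version 3.58.1, R 4.3.3) fitted log2(FPKM + 0.5) on diet alone over each whole table, with eBayes and a variance trend; p-values were two-sided and adjusted by Benjamini-Hochberg, and an adjusted p under 0.05 was the call. Fold changes understate the change of low genes. Single ratios were compared by an exact permutation test. FPKM are no counts, so no count model was used. The fits were tested on simulated data.

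Members and lists were chosen with earlier results of these data known. Up to 4 tested genes per pathway list with the smallest unadjusted p were eligible to be named, and the 5 genes most like fads2 and elovl5. Hsd17b4, sp1, mlx, hnf4a, slc27a6 and acsl3b were named in addition. Counts of higher and lower genes follow the sign of the log2 fold change, which can differ from that of the difference in mean FPKM. The result of a pathway gene is not reported here, and the list counts leave it out. A symbol also matched with a suffix a or b. Of 11 members 10 matched the RefSeq gene table, by symbol or, for fads2, by synonym. That table was used for names and neighbours only. Figures were drawn with matplotlib 3.10.9.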

Additional observations from a re-analysis of the deposited data

How the results depend on the processing

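Fads2, elovl5, hsd17b12b, hacd3 (MSTRG.4317), ehhadh and ACACA kept their direction in all alternatives run, and 0 members passed in any. Genes with small changes, such as degs1 (-0.31 to -0.0055), also kept theirs. In elovl5, hsd17b12b, ehhadh and ACACA the diets did not overlap, so leaving out libraries could not turn the sign. For these genes the kept direction is therefore no test. Leaving out single libraries, the log2 fold change of fads2 ranged from -3.54 to -1.89 and that of elovl5 from -0.97 to -0.65. Genes past the threshold numbered 0 to 4 when single libraries were left out (4 without NFD replicate 2), transcripts 0 to 4, and lncRNA transcripts 0 to 3; lncRNA transcripts numbered 1 with a pseudocount of 0.1. Signs turned, when single libraries were left out, for elovl1b (-0.12 to 0.11), elovl6 (-1.13 to 0.20), elovl8b (-0.096 to 0.20), HACD3 (MSTRG.24428; -0.21 to 0.017), cyb5a (-0.14 to 0.17), scd (-0.084 to 0.60), degs2 (-0.37 to 0.15), alox12 (-0.20 to 0.073), scap (-0.057 to 0.50), srebf2 (-0.064 to 0.71), nr1h3 (-0.30 to 0.0032) and MSTRG.7930.1 (-0.88 to 0.45). Cyb5a also turned with trimmed-mean centring (0.0066) and quantile normalization (0.065). In an alternative added after seeing the data, which drops the 2 libraries highest in pancreas markers (HFD replicate 3, NFD replicate 1), cyb5a was at 0.31, scd at -0.14, alox12 at 0.043 and scap at -0.071. The cause was not tested. Pathway genes beyond the up to 4 per list with the smallest unadjusted p were not followed singly in these alternatives. The row of elovl8a gave no value alone.

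Replicate numbers gave no sign of pairing: deviations from the diet means correlated at -0.0052, -0.20 and -0.11 between same-numbered libraries. Between differently numbered libraries these correlations ranged from -0.13 to 0.20. With 3 libraries per diet this check cannot exclude a pairing. With the replicate number as a block 0 genes passed, and fads2 had an unadjusted p of 0.00896 in limma and elovl5 of 0.0547. Depth in reads is unknown and limits the low members most.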
